A study of Mus musculus with 4 samples.

Results

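Claudins are the membrane proteins that build the strands of the tight junction, and 10 of their genes are described here in jejunal epithelium: Cldn1, Cldn2, Cldn3, Cldn4, Cldn7, Cldn8, Cldn12, Cldn15, Cldn18 and Cldn23. They were taken by symbol from the table of normalized expression, which holds 22456 symbols after short RNAs were left out, and all 10 were found. The 4 libraries came from adult mice on a mixed 129xC57/Bl6xSvJ background. Of these, 2 were Cre-negative controls and 2 were labelled Hnf4a;Cdx2 double knockouts, both genes encoding transcription factors of the intestinal epithelium. Every mouse, controls included, had received 1 mg of tamoxifen on each of 5 days, and the epithelium was detached with 5 mM EDTA. The labels name neither the promoter that drives Cre nor the deleted exons. The values are FPKM, which are fragment numbers corrected for the length of the transcript and the size of the library, so levels of different genes can be compared but the depth of each library is unknown.

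Claudins of neighbouring cells meet across the gap between them and either close it or form channels that let selected small ions through. Cldn2 and Cldn15 are the pore-forming claudins of the small intestine, selective for cations, and the sodium they return to the lumen is used by nutrient transporters. Cldn1, Cldn3, Cldn4 and Cldn8 are mostly described as sealing. The roles of Cldn7, Cldn12 and Cldn23 are less settled, and Cldn18 is the claudin of the gastric epithelium, where it limits the leak of acid.

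The labels were checked against the targeted genes. Hnf4a stood at 156 and 202 FPKM in the controls and at 31.6 and 48.2 in the mutants, whereas Cdx2 stood at 70.9 and 65.2 against 160 and 161. The direction of Cdx2 goes against its label, and a gene-level FPKM does not show whether an exon was deleted. The mutants are therefore called labelled knockout libraries, and each direction below rests on the labels. Summed over 6 epithelial markers (Cdh1, Vil1, Krt8, Krt18, Krt19 and Krt20) the libraries held 5469 to 8813 FPKM. Of the 6, limma called Vil1 lower (group means 997 and 497 FPKM, adjusted p = 0.0411) and Krt19 higher (718 and 2507 FPKM, adjusted p = 0.0150). No single one of 6 endothelial markers exceeded 0.624 FPKM and no smooth muscle marker exceeded 0.177. The 6 fibroblast markers summed to 2.82 and 3.70 FPKM in the controls and to 0.641 and 5.23 in the labelled knockout libraries. Dcn held the highest single value of these, 3.97 FPKM in double knockout replicate 2, and was not called by limma. The 6 leukocyte markers summed to 25.5 and 60.3 FPKM in the controls and to 17.0 and 28.8 in the labelled knockout libraries. None was called by limma. Lyz2 stood at 8.60 and 34.8 FPKM in the controls and at 1.86 and 2.66 in the labelled knockout libraries (limma, adjusted p = 0.0741). The groups overlapped in the other leukocyte markers. In bulk tissue, fewer cells of a type and less RNA per cell cannot be told apart.

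Among the claudins, the pore-forming pair changed in opposite directions, the gastric claudin appeared, and the abundant sealing claudin Cldn3 showed no difference that passed the test. Of the 10 claudins, 9 reached a mean of 1 FPKM and were tested. Limma, a linear model on log2(FPKM + 1) with Benjamini-Hochberg adjustment over the 10883 genes tested, called 3 of them higher (Cldn2, Cldn8 and Cldn18) and 1 lower (Cldn15) at an adjusted p under 0.05. Over all genes tested the shares called were 3.77% higher and 5.8% lower. Cldn8 and Cldn18 reached the level needed for testing only through the labelled knockout libraries, so their counts cannot be read against those shares. The same limit holds for the median log2 fold change of the 9, which was -0.17 (0.02 over all genes tested), and for the 6 of the 9 whose groups did not overlap (60.7% of all genes tested). Cldn8 and Cldn18 are among those 6. The plot of claudin levels gives every library.

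**Figure D1:**
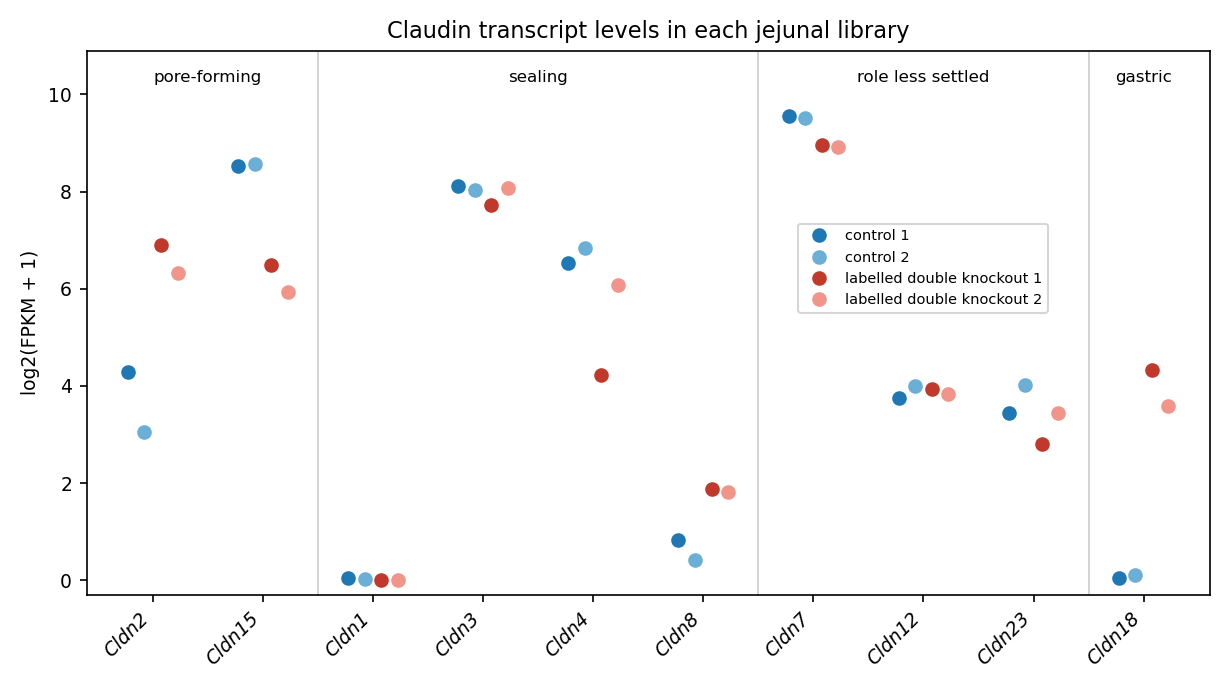
Transcript level of each of the 10 claudins on the log2(FPKM + 1) scale (vertical axis), 1 point per library, with genes grouped by role along the horizontal axis. Cldn15 was higher in both controls, Cldn2 and Cldn18 were higher in both labelled knockout libraries, and Cldn3 and Cldn12 overlapped between the groups.

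Cldn15 (mm9 chromosome 5, 137443739 to 137451715), a sodium channel of the small intestinal junction, was the second most abundant claudin of the controls. It stood at 370 and 378 FPKM in the controls and at 88.2 and 60.1 FPKM in the labelled knockout libraries. The controls agreed closely, and both other libraries lay far below them. The fall was 5.04-fold between the group means, from 374 ± 5.35 to 74.2 ± 19.8 FPKM (SD, n = 2 each). On the log2 scale the change was -2.34 ± 0.23 (limma SE), with an adjusted p of 0.00895 by limma. The limma adjusted p was 0.0603 without control replicate 1 and 0.0656 without control replicate 2.

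Cldn2 (mm9 chromosome X, 136335347 to 136345927), a cation and water channel known from the intestinal crypt, went the other way. It stood at 18.4 and 7.23 FPKM in the controls and at 118 and 79.3 FPKM in the labelled knockout libraries. The groups did not overlap, although control 2 was well below control 1. The rise was 7.69-fold between the group means, from 12.8 ± 7.92 to 98.6 ± 27.3 FPKM (SD, n = 2 each). On the log2 scale the change was 2.95 ± 0.45 (limma SE), with an adjusted p of 0.0241 by limma. Of the 4 fits that left out 1 library, only that without control replicate 1 kept the call (limma, adjusted p = 0.0415), and the others gave 0.0640 to 0.0817. Markers of crypt base and proliferating cells (Lgr5, Olfm4, Ascl2, Smoc2, Mki67, Top2a and Ccna2) summed to 420 and 183 FPKM in the controls and to 407 and 443 in the labelled knockout libraries. Most of each sum was Olfm4 (337 and 135 against 336 and 346 FPKM). Of these 7 markers 0 were called by limma in either direction. Control 2, the library with the least Cldn2, also had the lowest sum of crypt markers. Control 1, with less Cldn2 than either labelled knockout library, had a sum that lay between theirs. The part of crypt cells in the difference of Cldn2 was not tested.

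Within each library the order of the pore-forming pair was reversed. The level of Cldn15 was 20.1 and 52.2 times that of Cldn2 in the controls. In the labelled knockout libraries the level of Cldn2 was 1.34 and 1.32 times that of Cldn15. These ratios are within a library and do not depend on the scaling between libraries. Because the fall of Cldn15 was larger in FPKM than the rise of Cldn2, their sum was lower: 389 and 385 FPKM in the controls and 206 and 139 FPKM in the labelled knockout libraries.

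The sequences just before the start sites of these genes are shown because Cldn2 and Cldn15 were called in opposite directions and because Cldn18 has 2 start sites. They are the 250 bases before each start, read along the gene, from RefSeq (GRCm38.p6), whose coordinates differ from the mm9 positions given for the genes. Capitals mark matches, on either strand, to a TATA box (letters TATAAA) or to the letters bound by GATA factors, which are AGATAA.
Cldn2, chrX:139800558-139800807, + strand: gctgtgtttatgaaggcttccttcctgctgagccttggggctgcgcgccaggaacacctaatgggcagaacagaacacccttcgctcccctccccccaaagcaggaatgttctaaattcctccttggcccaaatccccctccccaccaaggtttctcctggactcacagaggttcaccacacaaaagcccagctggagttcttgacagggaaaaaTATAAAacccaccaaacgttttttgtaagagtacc
Cldn15, chr5:136967619-136967868, + strand: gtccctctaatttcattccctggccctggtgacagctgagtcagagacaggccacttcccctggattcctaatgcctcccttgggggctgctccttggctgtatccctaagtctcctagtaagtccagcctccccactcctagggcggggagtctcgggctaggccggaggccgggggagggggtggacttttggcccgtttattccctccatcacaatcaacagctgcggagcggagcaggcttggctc
Cldn18, upstream start, chr9:99717268-99717517, - strand: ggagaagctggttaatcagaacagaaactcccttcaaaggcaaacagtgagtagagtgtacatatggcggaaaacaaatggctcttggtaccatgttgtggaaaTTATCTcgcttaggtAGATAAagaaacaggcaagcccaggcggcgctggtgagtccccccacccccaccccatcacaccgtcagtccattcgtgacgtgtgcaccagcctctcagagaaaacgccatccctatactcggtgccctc
Cldn18, downstream start, chr9:99710064-99710313, - strand: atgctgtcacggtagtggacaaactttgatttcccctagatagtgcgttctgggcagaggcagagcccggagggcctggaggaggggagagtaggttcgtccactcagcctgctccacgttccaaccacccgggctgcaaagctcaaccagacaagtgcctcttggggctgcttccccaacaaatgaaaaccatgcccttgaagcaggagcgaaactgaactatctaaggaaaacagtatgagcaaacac

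Of the 10 claudins 8 had such windows, 12 in all, and Cldn8 and Cldn23 had none. None of the 12 windows held CAAAGTNCA (HNF4), or TTTAT followed by any base and G (CDX), on either strand. Over 32851 mouse windows of 250 bases outside chromosome 18, 1.19% held the HNF4 letters and 9.81% the CDX letters. The 3 windows of Cldn12 overlap one another, so the 12 are not separate stretches. The window of Cldn2 held TATAAA beginning 35 bases before the start, as did 12.4% of all windows at some position. The upstream window of Cldn18 held AGATAA on each strand, 146 and 131 bases before the start, and 9.99% of all windows held it at least once. These matches describe letters in short windows and are not binding data.

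Cldn18 (mm9 chromosome 9, 99591216 to 99617686) was nearly undetected in control jejunum, at 0.0372 and 0.0835 FPKM. It stood at 19.0 and 10.95 FPKM in the labelled knockout libraries. All of the separation came from its appearance in the latter, where its range overlapped that of Cldn12. On the log2 scale the change was 3.87 ± 0.29 (limma SE), with an adjusted p of 0.00510 by limma, between means of 0.0604 ± 0.0328 and 15.0 ± 5.67 FPKM (SD, n = 2 each). With control levels this low, the ratio of the means (248-fold) is imprecise. The limma adjusted p was 0.0503 without control replicate 1.

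The library files list 2 start sites for Cldn18, and its transcripts in stomach and in lung are known to begin at different ones. A gene-level FPKM does not show which was used. Of 10 gastric markers, Gkn1, Gkn2, Tff2, Pgc, Atp4a and Gif reached the filter and were called higher by limma. They reached it only through the labelled knockout libraries, so the number called is not read against the 3.77% of all genes. The 10 summed to 1.32 and 0.721 FPKM in the controls and to 3357 and 1548 in the labelled knockout libraries. Gkn1 (1122 and 513 FPKM), Gkn2 (1789 and 761) and Tff2 (400 and 244) carried most of the latter sums. Cldn18 was also higher in the first of these libraries than in the second. Of the called gastric markers, Gif alone had the other order (3.01 and 5.35 FPKM). Other gastric genes stayed near absent: Tff1 was listed at 0 throughout, and the gel-forming mucins Muc5ac and Muc6 reached at most 0.0308 FPKM and the proton pump subunit Atp4b at most 0.176. Lung markers were near absent: Sftpb and Scgb1a1 were listed at 0 in all 4 libraries and no lung marker exceeded 0.126 FPKM. The tested genes closest to Cldn18 in profile over the 4 libraries were Vsig1, Sptssb and Mal. Their root mean square differences after centring each gene were 0.0939, 0.102 and 0.111 on the log2(FPKM + 1) scale. For Cldn15 the closest were Mfsd6l (0.0679), St6galnac1 (0.108) and Ttc39c (0.113). With 4 libraries in 2 groups, such closeness is a description of level and direction only.

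The sealing claudins did not move as a group. Cldn3 (mm9 chromosome 5, 135462084 to 135463346), the most abundant of them, stood at 277 and 262 FPKM in the controls and at 211 and 269 in the labelled knockout libraries. The groups overlapped, and the log2 fold change of -0.17 ± 0.20 was within its error (limma SE, adjusted p = 0.613). It overlaps the gene Wbscr25 by 44 bases, and without a stated strand setting reads from those bases cannot be told apart.

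Cldn4 (mm9 chromosome 5, 135420993 to 135422804), which in the gut is described as a barrier claudin, was the most uneven member. It stood at 90.8 and 113 FPKM in the controls but at 17.8 and 66.6 in the labelled knockout libraries. Both of the latter were below both controls, yet they lay far from each other. The log2 fold change was -1.52 ± 0.61 and missed the threshold (limma SE, adjusted p = 0.188). Without double knockout replicate 2 it was -2.44 and was called (limma, adjusted p = 0.0221), and without double knockout replicate 1 it was -0.60 and was not (limma, adjusted p = 0.247). The authors' deposited table calls Cldn4 lower, with group values of 111 and 43.8 FPKM (q = 0.00291).

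Cldn8 (mm9 chromosome 16, 88561071 to 88563428), known mainly from the distal colon and kidney tubule, was scarce throughout. It stood at 0.775 and 0.333 FPKM in the controls and at 2.66 and 2.51 in the labelled knockout libraries. The groups did not overlap, and the log2 fold change was 1.22 ± 0.23 (limma SE, adjusted p = 0.0418). The call was lost in each of the 4 fits that left out 1 library (limma, adjusted p = 0.0745 to 0.123) and with a pseudocount of 0.1 (0.0578). Cldn1, a claudin of the skin barrier, did not reach the filter: it stood at 0.0323 and 0.0236 FPKM in the controls and was listed at 0 in both labelled knockout libraries.

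**Figure D2:**
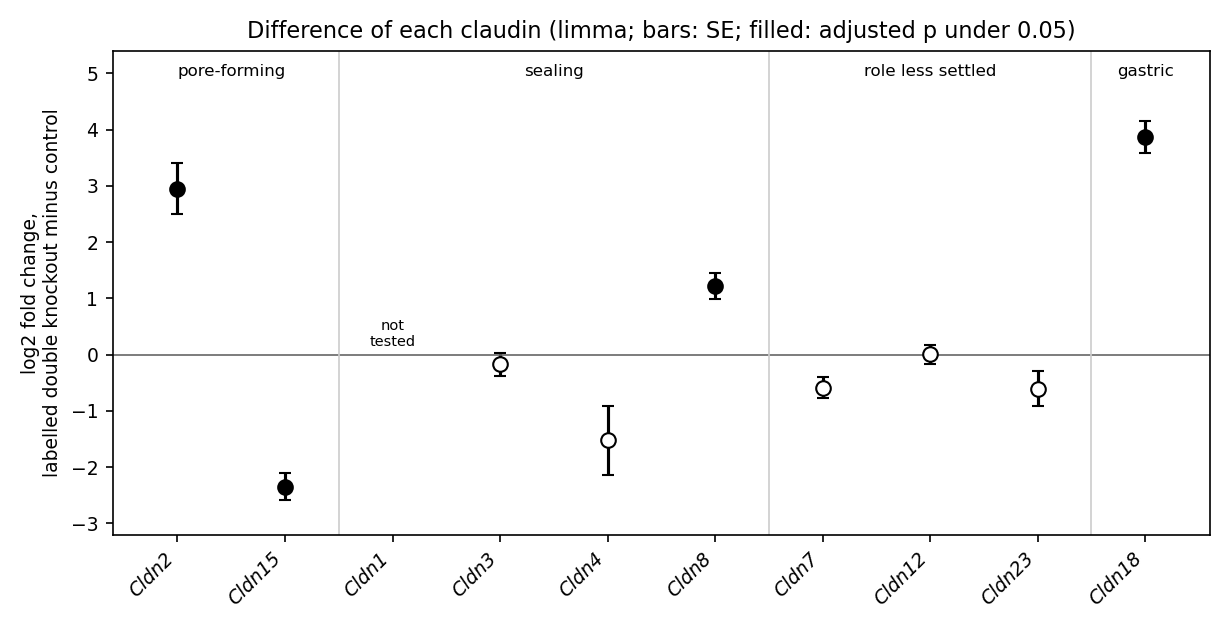
Log2 fold change of each claudin (vertical axis, log2(FPKM + 1) scale, labelled double knockout minus control), by role along the horizontal axis; bars show the SE from limma, filled points an adjusted p under 0.05. Cldn18 (3.87), Cldn2 (2.95) and Cldn8 (1.22) lay above 0 and Cldn15 (-2.34) below it among the called genes.

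Of the claudins with less settled roles, none was called. Cldn7 (mm9 chromosome 11, 69778281 to 69781388), which sits along the lateral membrane as well as at the junction, was the most abundant claudin in every library. It stood at 754 and 726 FPKM in the controls and at 500.1 and 486 in the labelled knockout libraries. The 2 groups were each tight and did not overlap, but the log2 fold change of -0.58 ± 0.18 did not pass the threshold (limma SE, unadjusted p = 0.0248 and adjusted p = 0.117). Cldn12, reported to take part in calcium passage with Cldn2, stood at 12.5 and 15.0 FPKM in the controls and at 14.3 and 13.2 in the labelled knockout libraries. Its groups overlapped and its log2 fold change was 0.01 ± 0.17 (limma SE, adjusted p = 0.984). Cldn23 stood at 9.81 and 15.3 FPKM against 5.95 and 9.93, again overlapping (log2 fold change -0.61 ± 0.31, limma SE, adjusted p = 0.279).

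The order of claudin levels changed below the first rank. In the controls it ran Cldn7, Cldn15, Cldn3 and Cldn4 with no overlap between neighbours, then Cldn12, Cldn2 and Cldn23 with overlapping ranges, and Cldn8, Cldn18 and Cldn1 last. In the labelled knockout libraries it ran Cldn7, Cldn3, Cldn2, Cldn15, Cldn4, Cldn18, Cldn12, Cldn23, Cldn8 and Cldn1. There Cldn2 was above Cldn15 in both libraries, although their ranges across libraries overlapped. The ranges of Cldn15 and Cldn4, of Cldn4 and Cldn18, and of Cldn18 and Cldn12 also overlapped, and each of these pairs changed order between the libraries.

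Summed over the 10 claudins the controls held 1533 and 1516 FPKM and the labelled knockout libraries 977 and 997. The mean sum changed by -537 FPKM. The group means of Cldn15 and Cldn7 differed by -299.7 and -246.9 FPKM, those of Cldn4 and Cldn3 by -59.8 and -29.0, and that of Cldn2 by 85.8. Pore-forming claudins made up 25.3% and 25.4% of the summed claudin FPKM in the controls and 21.1% and 14.0% in the labelled knockout libraries. The sealing claudins held 24.0% and 24.7% in the controls and 23.7% and 33.9% in the other libraries, so their ranges overlapped. Cldn18 reached 1.94% and 1.10% of the sum in the labelled knockout libraries, from at most 0.00551% in the controls. With 2 libraries a group the smallest p of an exact permutation test is 0.333, so these shares are given without a test.

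**Figure D3:**
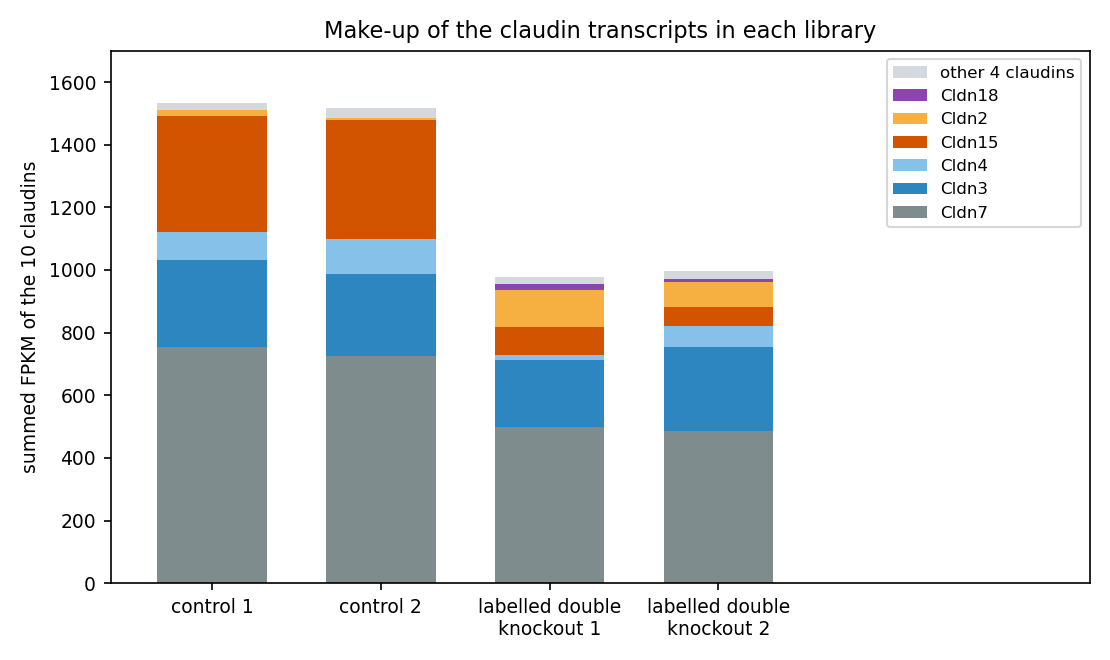
Stacked FPKM of the 10 claudins (vertical axis, starting at 0) in each of the 4 libraries (horizontal axis), with the other 4 being Cldn1, Cldn8, Cldn12 and Cldn23. Cldn15 is the second largest segment of both controls (370 and 378 FPKM) and is smaller than Cldn2 in both labelled knockout libraries.

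Of 15 further symbols of the table that begin with Cldn and a number, 14 lay under the filter and did not exceed 0.434 FPKM in any library; 8 of these were listed at 0 in all 4, among them Cldn5, a claudin of endothelium. The remaining symbol, Cldn25, is named Cldnd1 in RefSeq (chromosome 16), a claudin domain gene. It stood at 46.9 and 66.6 FPKM in the controls and at 21.7 and 29.2 in the labelled knockout libraries. Its groups did not overlap, but the difference missed the threshold (log2 fold change -1.12 ± 0.25, limma SE, adjusted p = 0.0582; 0.0404 with a replicate block). The authors' deposited table calls Cldn25 lower, with group values of 59.9 and 27.8 FPKM (q = 0.00669).

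The authors' deposited table tested 9 of the 10 claudins and calls 5 of them, 3 higher and 2 lower in the knockout, beside 13.2% of all genes it tested. Its calls are Cldn2 (q = 0.000868), Cldn15 (q = 0.000868), Cldn4, Cldn8 (q = 0.0180) and Cldn18 (q = 0.0428). Cldn8 and Cldn18 were low in the controls there too (0.585 and 0.0606 FPKM), so the 5 cannot be read against that share. The authors' deposited table does not call Cldn7, whose group values there are 839 FPKM for control and 554 for knockout (q = 0.375). Both analyses rest on 1 set of libraries, so neither is independent of the other.

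Genes of the tight junction other than claudins were compared with the claudins in the same fit. Claudin strands are anchored by cytoplasmic scaffolds and joined by occludin and junctional adhesion molecules. Of 28 such genes 23 were tested, of which 0 were called higher and 3 lower (Prkcz, Tjap1 and Magi3), at a median log2 fold change of -0.06. These shares are read beside the 3.77% and 5.8% of all genes tested. Cgnl1 was not tested, because its mean of 0.896 FPKM lay under the filter. It stood at 0.299 and 0.262 FPKM in the controls and at 1.70 and 1.32 in the labelled knockout libraries. The authors' deposited table calls it higher (q = 0.00463). The groups did not overlap in 14 of the 23, near the share over all genes tested (60.7%).

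Prkcz, an atypical protein kinase C of the polarity complex, stood at 28.0 FPKM in both controls and at 12.0 and 7.62 in the labelled knockout libraries (log2 fold change -1.45 ± 0.24, limma SE, adjusted p = 0.0280). Tjap1, a tight junction associated protein, stood at 22.7 and 20.2 against 11.1 and 9.46 FPKM (-0.996 ± 0.17, limma SE, adjusted p = 0.0298). Magi3, a membrane scaffold, stood at 16.3 and 20.4 against 9.70 and 8.91 FPKM (-0.90 ± 0.18, limma SE, adjusted p = 0.0442). In the 4 fits that each left out 1 library, Tjap1 and Magi3 were never called (largest adjusted p by limma 0.132 and 0.181). Prkcz was called only in the fit without double knockout replicate 1 (0.0275 by limma, against 0.127 at most in the others). The authors' deposited table calls Prkcz, Tjap1 and Magi3 lower (q = 0.000868, 0.00515 and 0.0168). The core scaffold and adhesion genes were not called. Tjp1, which encodes ZO-1, stood at 17.2 and 23.4 against 25.7 and 21.3 FPKM, and Ocln, the occludin gene, at 50.5 and 67.1 against 53.1 and 49.0 (limma, adjusted p = 0.561 and 0.579). F11r, which encodes the adhesion molecule JAM-A, stood at 98.1 and 107 against 97.7 and 99.9 FPKM, and Cgn, the cingulin gene, at 31.0 and 32.4 against 41.2 and 37.8 (limma, adjusted p = 0.854 and 0.252). Neither Ocln nor F11r had a settled sign: from single-library FPKM their log2 fold changes were 0.04 and 0.13. Quantile normalization turned F11r (0.06) but not Ocln (-0.10).

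Cldn7 is bound and stabilised by EpCAM, which is cleaved by the protease matriptase (St14), itself held in check by the inhibitors encoded by Spint1 and Spint2. Epcam stood at 1135 and 1281 FPKM in the controls and at 526 and 531 in the labelled knockout libraries, a fall of 1.19 on the log2 scale (-1.19 ± 0.20, limma SE, adjusted p = 0.0300). The level of Epcam was 1.51 and 1.77 times that of Cldn7 in the controls and 1.05 and 1.09 times in the labelled knockout libraries. Spint1 fell from 240 and 243 to 142 and 127 FPKM (log2 fold change -0.85 ± 0.17, limma SE, adjusted p = 0.0443). Prss8, which encodes the protease prostasin, rose from 15.5 and 10.5 to 35.3 and 30.3 FPKM (1.29 ± 0.23, limma SE, adjusted p = 0.0340). St14 stood at 84.2 and 93.0 against 87.8 and 69.6 FPKM, and Spint2 at 655 and 572 against 683 and 658 (limma, adjusted p = 0.582 and 0.702). The calls of Epcam, Spint1 and Prss8 were lost in each of the 4 fits that left out 1 library (largest adjusted p by limma 0.124, 0.160 and 0.124), and the authors' deposited table calls Prss8 (q = 0.00765) but not Epcam (q = 0.0879) or Spint1 (q = 0.0910).

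**Figure D4:**
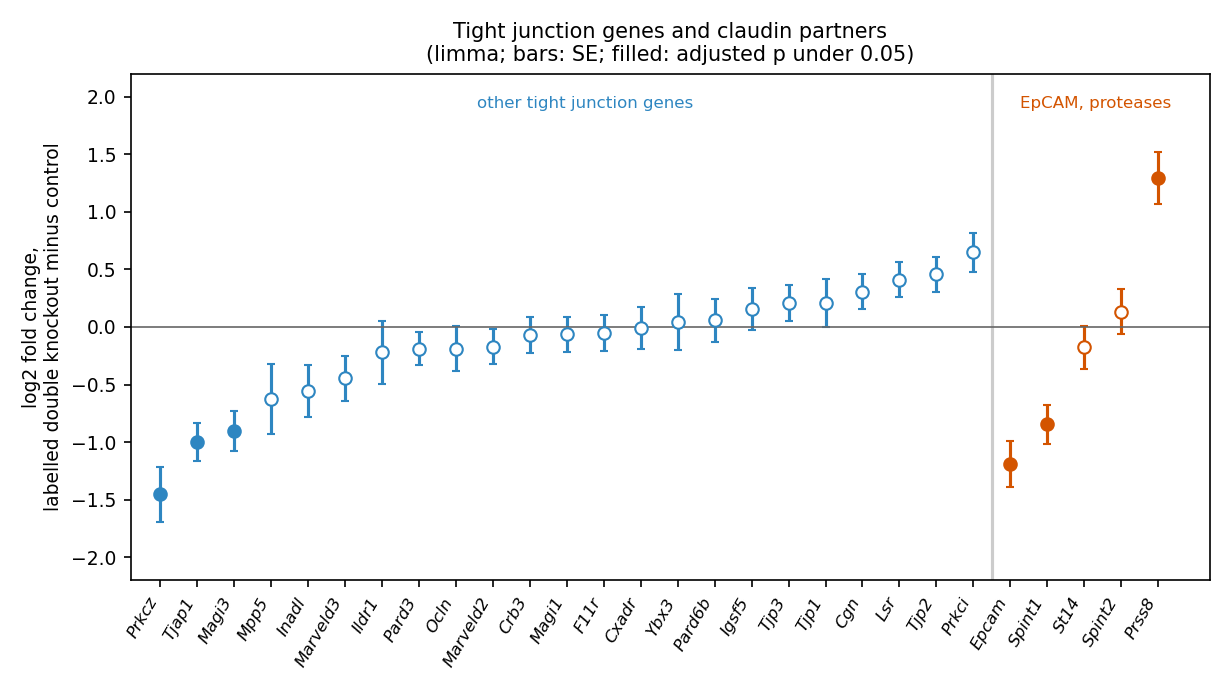
Log2 fold change (vertical axis, labelled double knockout minus control) of the 23 tested tight junction genes and of Epcam and 4 protease system genes (horizontal axis, ordered by value); bars show the SE from limma, filled points an adjusted p under 0.05. Filled points lie at Prkcz (-1.45), Tjap1 (-0.996), Magi3 (-0.90), Epcam (-1.19), Spint1 (-0.85) and Prss8 (1.29).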

How the data were processed

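RNA-seq libraries of jejunal epithelium (4, read as single-end reads of 75 bases) were grouped by their titles. The build mm9 and the tools Cuffdiff, Cuffnorm, Cufflinks (version 2.1.1) and TopHat2 (version 2.0.9) are named, without roles, per the submitters' processing notes. The authors deposited a table of the 4 libraries that states no unit. Its values were read as FPKM normalized between libraries, since they resemble the FPKM that the file headers of the per-library files name. The authors' deposited comparison table holds group FPKM, p-values, q-values and a test statistic score, which was not used. These files hold no read counts, so no counting error or floor is given, and an exact 0 may be an estimate that failed. FPKM and its fold changes of low genes are imprecise, and log2(FPKM + 1) understates them. Whether the libraries kept strand is not given in the sources used here.

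Rows sharing a symbol were summed (147 symbols), 1036 short RNA symbols were left out, and genes whose mean reached 1 FPKM were tested. The test was limma version 3.58.1 (R version 4.3.3) on log2(FPKM + 1), two-sided, with genotype as the term, an intensity trend and Benjamini-Hochberg adjustment over 10883 genes. All adjusted p-values are from limma, and the procedure was tested on simulated data. Named were all 10 claudins, called junction genes with 4 fixed ones, 5 partners of claudins, and the nearest profiles, and 1 further gene of the lists is not reported here. AGATAA and TATAAA were searched after the promoter windows had been read. The members and gene lists were chosen with earlier results of these data known. There were 12 alternatives of pseudocount, filter, scaling, source of the FPKM, variance trend, replicate block and left-out library.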

Additional observations from a re-analysis of the deposited data

How the results depend on the processing

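Cldn15 and Cldn18 kept their direction under the 12 alternatives, and their call under each one except those that left out a control (Cldn15 without either, Cldn18 without replicate 1). Cldn2 kept its direction too, with its call lost in 3 fits that left out 1 library and, testing all genes with a mean above 0, at a limma adjusted p of 0.0560. Left-out libraries reduced the genes called from 1041 to between 171 and 693 (67 to 309 higher and 97 to 384 lower), the claudins called higher from 3 to 1 in each fit, and those called lower ranged from 0 to 2. Tight junction genes called lower then ranged from 0 to 1, with 0 to 0 called higher. In such fits the lone library of a group is assumed to vary like the others. With no filter 268 genes were called higher, and 1 claudin (Cldn18). There 1 tight junction gene was called higher (Cgnl1) and 0 lower. With the single-library FPKM 1 was called higher (Prkci) and 1 lower (Prkcz), and the median of all genes lay at 0.17 against 0.02. Pore-forming shares were then 21.4% and 21.6% in the controls and 17.9% and 11.4% in the labelled knockout libraries. After quantile normalization they were 24.8% and 24.6% against 21.3% and 14.0%. Direction turned only in genes far from a call: Cldn12 (-0.12 to 0.13 over left-out libraries), Ocln (-0.39 to 0.014, and 0.039 from single-library FPKM) and F11r (-0.12 to 0.0095, 0.059 after quantile normalization and 0.13 from single-library FPKM). With a replicate block 786 genes were called. Cldn8, Epcam, Spint1 and Magi3 lost their calls (limma, adjusted p = 0.0736, 0.0753, 0.0993 and 0.0786), and Cldn25 gained one. No label says that the shared numbers pair the libraries. The differences between replicates correlated at r = -0.00481 across genes between the groups. A correlation over all genes cannot exclude a shared batch that affects only some of them. The cause of these shifts was not tested. With 2 libraries a group and unknown depth, small differences cannot be resolved.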
